A study of Canis lupus familiaris with 11 samples.

Results

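The primary cilium is a single antenna-like projection that grows from the mother centriole of most resting epithelial cells. It is built and maintained by intraflagellar transport (IFT), in which kinesin-2 carries trains of IFT-B and IFT-A complexes to the tip and dynein-2 returns them, while the BBSome, a coat-like complex, moves membrane proteins along the same track. A transition zone at the base controls what enters. In kidney tubule epithelium the cilium is known as a sensor of flow and a hub of Hedgehog and polycystin signalling, and defects in these genes cause cystic kidney disease and retinal dystrophy in humans. The roles given here come mostly from human, mouse and algal work and are background, not results in dog cells.

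The report follows 39 genes that were listed by name for this process, and 37 of them had a row among the 26178 genes of the count table. They comprise 11 IFT-B genes, 5 IFT-A genes, 4 kinesin genes, 6 BBSome subunits, 2 chaperonin-like BBS genes, 1 small GTPase, 5 transition zone genes and 3 genes of the centriole or proximal cilium. BBS5 and ARL6 were not analysed here. The name was given directly for 32 genes and through the UniProt match in the table for 5, namely IFT22 (listed under its older symbol), IFT140, BBS1, ARL3 and INVS. The IFT140 row is a gene model of 279 bp on an unplaced scaffold with 6 to 16 reads per library. The TMEM216 row carries a UniProt match to the neighbouring gene TMEM138. Both rows are therefore uncertain and are marked as such where they appear. All 37 passed the filter on low counts that left 13560 genes. The members, and the other lists used below, were chosen with earlier results of these data known. Their counts set against all genes are therefore descriptions and not tests.

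RNA was sequenced from MDCKII cells, which come from dog kidney tubule and grow as a polarised epithelial sheet, and from a derived line in which LMNA, the gene of the nuclear lamins A and C, is knocked out. The 4 groups were, KO compressed (3 libraries), KO control (2), WT compressed (3) and WT control (3). All cells were grown for 3 to 4 d to confluence, and the compressed ones were then squeezed laterally and left to recover for 2 h. Groups were read from the sample titles, since the design note of the series speaks of another time course and of neither compression nor knockout. The titles mention no mock handling or recovery time for controls, so compression cannot be told apart from handling or from the extra hours. The labels do not say how pressure was applied, whether the KO line is 1 clone, or whether replicates were separate cultures, so the p-values measure the spread between these libraries, which may be technical.

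Libraries held 10420214 to 17999623 counts, and the cilium genes took 844.8 to 1303.5 counts per 1e6. LMNA stood at 25.5 to 51.8 CPM (counts of the gene per 1e6 counts, TMM-scaled) in the 5 KO libraries and at 678.7 to 1208.5 CPM in the 6 WT libraries. The KO minus WT log2 difference in LMNA was -4.53 ± 0.25 after compression and -4.38 ± 0.30 in controls (SE; edgeR adjusted p of 1.19e-06 and 1.57e-05). Among 7 usable epithelial markers, the summed FPKM (fragments per kilobase of gene and per 1e6 fragments) was 399.1 to 518.8 in KO compressed, 464.9 to 507.7 in KO control, 364.5 to 418.4 in WT compressed and 432.7 to 531.0 in WT control libraries. Summed markers stayed at or under 3.13 FPKM for 7 fibroblast genes, 0.661 FPKM for 5 endothelial genes and 7.82 FPKM for 6 immune genes. KO compressed replicate 2 stood apart, with the highest value of 17 of the 37 cilium genes. In the gene-density measure described further on, WT control replicate 1 (0.08) lay below WT control replicates 2 and 3 (0.86 and 0.42). It was not extreme among all 11 libraries. Counts of calls and several medians and fold changes are also given without these libraries.

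Levels per length differed widely between the cilium genes. ARL3, a GTPase that unloads lipid-modified cargo in the cilium, had the highest FPKM in every group, at 60.9 ± 3.22 in KO compressed, 47.4 ± 9.49 in KO control, 48.4 ± 7.03 in WT compressed and 35.1 ± 4.63 in WT control cells (SD). IFT20, the IFT-B subunit that also resides at the Golgi, averaged 35.7 ± 11.1, 27.6 ± 1.37, 33.6 ± 10.9 and 26.5 ± 3.15 FPKM in the same order of groups. The IFT-A subunit WDR35 averaged 21.8 ± 4.62, 22.0 ± 0.699, 24.0 ± 0.714 and 20.8 ± 1.53 FPKM in that order. These 3 genes were the highest in WT control cells. At the low end of the scale, BBS12 stood at 0.790 ± 0.109, BBS10 at 0.948 ± 0.134 and IFT88 at 1.75 ± 0.407 FPKM in WT control cells. The other members lay between these. IFT88 and IFT20 belong to the same IFT-B complex, and their levels per length lay near opposite ends of the order.

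**Figure D1:**
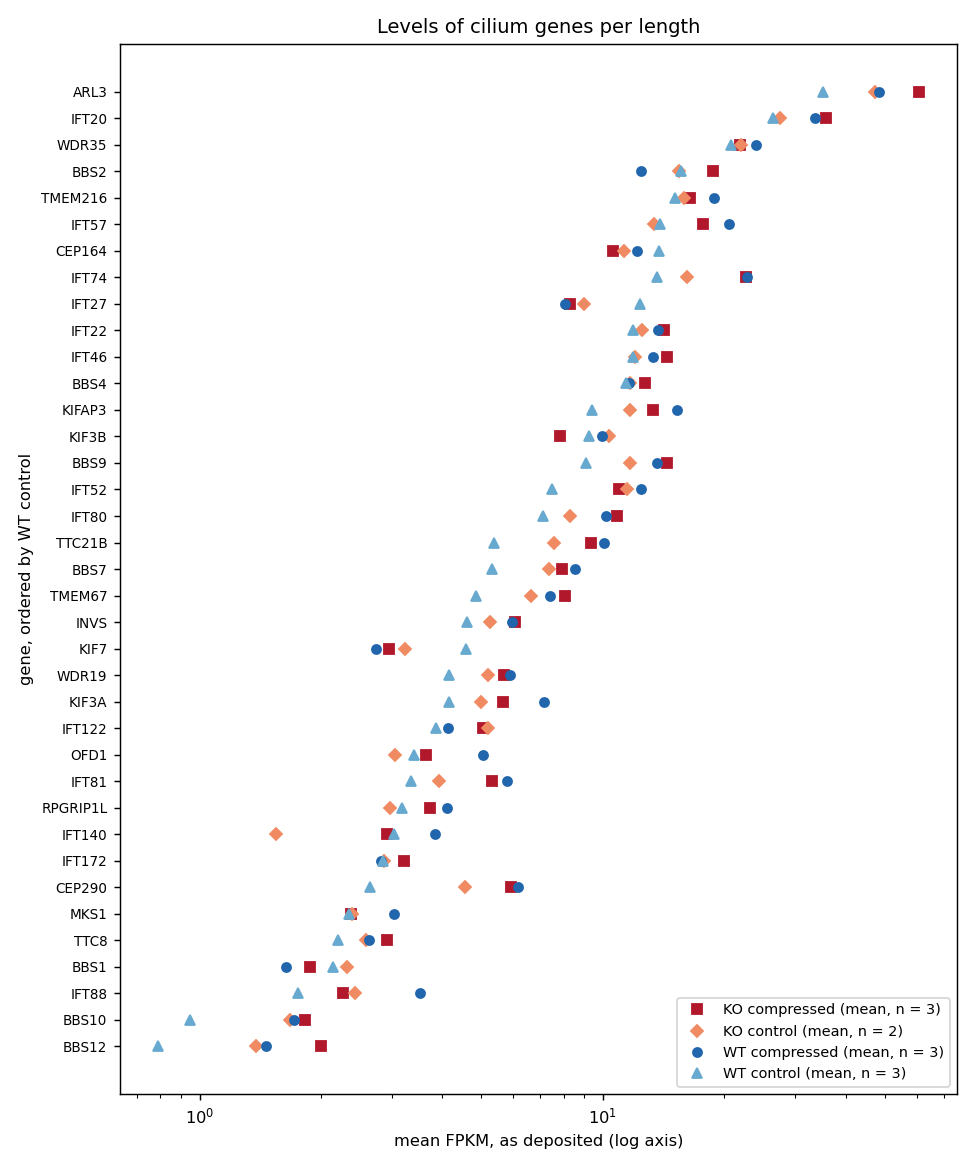
Mean deposited FPKM of each of the 37 cilium genes (log axis) in the 4 groups, with genes ordered by their level in WT control cells. ARL3, IFT20 and WDR35 lie at the top of the WT control order and IFT88, BBS10 and BBS12 at the bottom. The IFT140 and TMEM216 points rest on uncertain rows.

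In WT cells, 4 cilium genes were called higher in compressed than in control sheets. They were the IFT-B subunits IFT88 and IFT74, the IFT-A subunit TTC21B, and KIFAP3, the non-motor subunit of kinesin-2. None was called lower. CPM is a share of the counts, so the amount of RNA per sheet was not measured. In bulk RNA, a change in the mix of cells and a change in RNA per cell cannot be told apart. The 4 of 37 called higher stand against 3.85% of all genes tested, and the 0 called lower against 2.4%. The count without adjustment was wider, at 17 higher and 1 lower with p under 0.05, where 15.4% and 16.4% of all genes passed. The fold change was above 0 for 31 of the 37, against 48.5% of all genes, and the median log2 fold change was 0.39, against -0.02 over all genes. In 22 of the 37, all 3 compressed libraries lay above all 3 control libraries and in 0 the reverse, against 21.2% and 20.8% of all genes.

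The number of calls depended on single libraries. The smallest edgeR adjusted p of any gene in this comparison was 0.041, so every call lay close under the threshold of 0.05. It was 0 without any 1 of WT compressed 1, 2 or 3, WT control 2 or 3, or KO control 1 or 2 (which enter through the shared estimate of spread), and in these fits at most 0.00742% of all genes were called. It was 9 without KO compressed 1, 14 without KO compressed 2 and 5 without KO compressed 3, where 9.09%, 22.7% and 6.78% of all genes were called. Without WT control 1 it was 5, against 10.2% of all genes, and IFT88 and TTC21B were not among the 5. Their log2 fold changes were then 0.84 and 0.77 (edgeR adjusted p of 0.0517 and 0.0621), while IFT74 and KIFAP3 had 0.90 and 0.80 (edgeR adjusted p of 0.0369 and 0.042). The median of the 37 stayed between 0.37 and 0.52 when 1 library was left out, and was 0.40 without WT control 1. DESeq2 called 13 members, where it called 19.1% of all genes.

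IFT88, needed for the assembly of cilia and altered in a mouse model of polycystic kidney disease, had 12.2, 9.15 and 13.3 CPM in WT compressed libraries, against 4.18, 6.37 and 6.53 CPM in WT control libraries. The groups did not overlap, and the log2 fold change was 1.02 ± 0.25 (SE, edgeR adjusted p of 0.0435). In the deposited annotation (CanFam3.1) the gene spans chromosome 25, 17414397 to 17546756, on the minus strand. IFT74, which pairs with IFT81 in a tubulin-binding module, had 68.0, 57.4 and 65.1 CPM in WT compressed and 44.7, 32.4 and 35.7 CPM in WT control libraries. Its log2 fold change was 0.76 ± 0.21 (edgeR adjusted p of 0.0489), again with no overlap. IFT74 spans chromosome 11, 45160350 to 45241827, on the plus strand, and 6705 bp of it overlap LRRC19 on the other strand. LRRC19 itself had 192 to 766 counts and a log2 fold change of 1.01 ± 0.27 (edgeR adjusted p of 0.0471) in the same comparison. This overlap and those given below are of genomic spans with introns, and shared exon sequence was not examined. The summed length given for IFT74 is 2742 bp, less than the overlap. The labels do not say that the kit marks strand, so any reads from sequence shared by the pair cannot be told apart.

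Another 4 IFT-B genes had an unadjusted p under 0.05 without passing the adjusted threshold. IFT52, which ties the IFT-B core together, had 19.4, 14.9 and 16.7 CPM in WT compressed and 8.82, 12.2 and 9.28 CPM in WT control libraries, with no overlap and a log2 fold change of 0.75 ± 0.21 (edgeR adjusted p of 0.0513). IFT57, a peripheral IFT-B subunit, had 105.3, 94.2 and 109.9 CPM in WT compressed and 72.1, 64.4 and 69.9 CPM in WT control libraries (0.58 ± 0.17, edgeR adjusted p of 0.0518). IFT81, the partner of IFT74, had 20.4, 19.1 and 28.2 CPM in WT compressed and 13.3, 12.1 and 13.4 CPM in WT control libraries (0.80 ± 0.23, edgeR adjusted p of 0.0525). These 3 genes sat just past the threshold with groups that did not overlap. The other, IFT80, had 40.3, 46.2 and 52.1 CPM in WT compressed and 41.0, 23.7 and 31.4 CPM in WT control libraries, which overlapped through WT control replicate 1 (0.53 ± 0.23, edgeR adjusted p of 0.13).

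Not all IFT-B genes followed. IFT20 overlapped between groups, at 24.6, 21.5 and 38.5 CPM in WT compressed and 23.4, 18.9 and 23.8 CPM in WT control libraries (0.35 ± 0.27, edgeR adjusted p of 0.367). IFT172, the largest IFT-B protein, had a log2 fold change of -0.00 ± 0.20. IFT27, a Rab-like GTPase that links IFT-B to BBSome exit from the cilium, had 9.07, 6.27 and 4.44 CPM in WT compressed and 10.6, 11.8 and 7.69 CPM in WT control libraries (-0.60 ± 0.32, edgeR adjusted p of 0.215). Its highest compressed library lay above its lowest control library. Across the 11 IFT-B genes, 2 were called higher and 0 lower, 9 fold changes were above 0 and the median was 0.53. Over all genes, 3.85% were called higher, 2.4% lower and 48.5% were above 0, with a median of -0.02.

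Of the 5 IFT-A genes, TTC21B alone was called, where 3.85% of all genes were called higher. It had 62.1, 47.9 and 65.2 CPM in WT compressed libraries, against 24.0, 32.4 and 35.9 CPM in WT control libraries, with no overlap (log2 fold change 0.92 ± 0.24, edgeR adjusted p of 0.0449). The gene, which encodes a subunit needed for the return trip to the base, spans chromosome 36, 11008699 to 11086626, on the minus strand. WDR19, another core IFT-A subunit, had a log2 fold change of 0.52 ± 0.17 (edgeR adjusted p of 0.0686), and 1455 bp of its gene overlap RFC1 on the other strand. WDR35 had 89.2, 84.2 and 86.2 CPM in WT compressed and 77.9, 67.5 and 77.4 CPM in WT control libraries, groups that did not overlap but lay close (0.22 ± 0.17, edgeR adjusted p of 0.373). IFT122 had 19.7, 21.9 and 19.4 CPM in WT compressed and 15.6, 19.9 and 20.6 CPM in WT control libraries (0.12 ± 0.19, edgeR adjusted p of 0.695). The uncertain IFT140 row had 0.461, 1.19 and 1.61 CPM in WT compressed and 0.709, 0.872 and 0.977 CPM in WT control libraries, which overlapped.

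Among the kinesins, KIFAP3 had 66.6, 49.6 and 68.1 CPM in WT compressed libraries, against 41.8, 33.7 and 36.9 CPM in WT control libraries, with no overlap (0.71 ± 0.20, edgeR adjusted p of 0.0484). Its gene spans chromosome 7, 28593583 to 28740518, on the plus strand. The motor subunits of the same kinesin-2 differed from each other in size. KIF3A had a log2 fold change of 0.80 ± 0.26 (edgeR adjusted p of 0.0705), while KIF3B had 29.7, 26.3 and 28.9 CPM in WT compressed and 27.1, 24.8 and 26.3 CPM in WT control libraries (0.12 ± 0.21, edgeR adjusted p of 0.727). KIF7, a kinesin at the ciliary tip that regulates Hedgehog output and is not an IFT motor, had 13.3, 14.8 and 8.38 CPM in WT compressed and 24.3, 22.0 and 14.2 CPM in WT control libraries. It was the only member with an unadjusted p under 0.05 in the lower direction (-0.72 ± 0.28, edgeR adjusted p of 0.0989), and its groups overlapped by 1 library on each side.

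**Figure D2:**
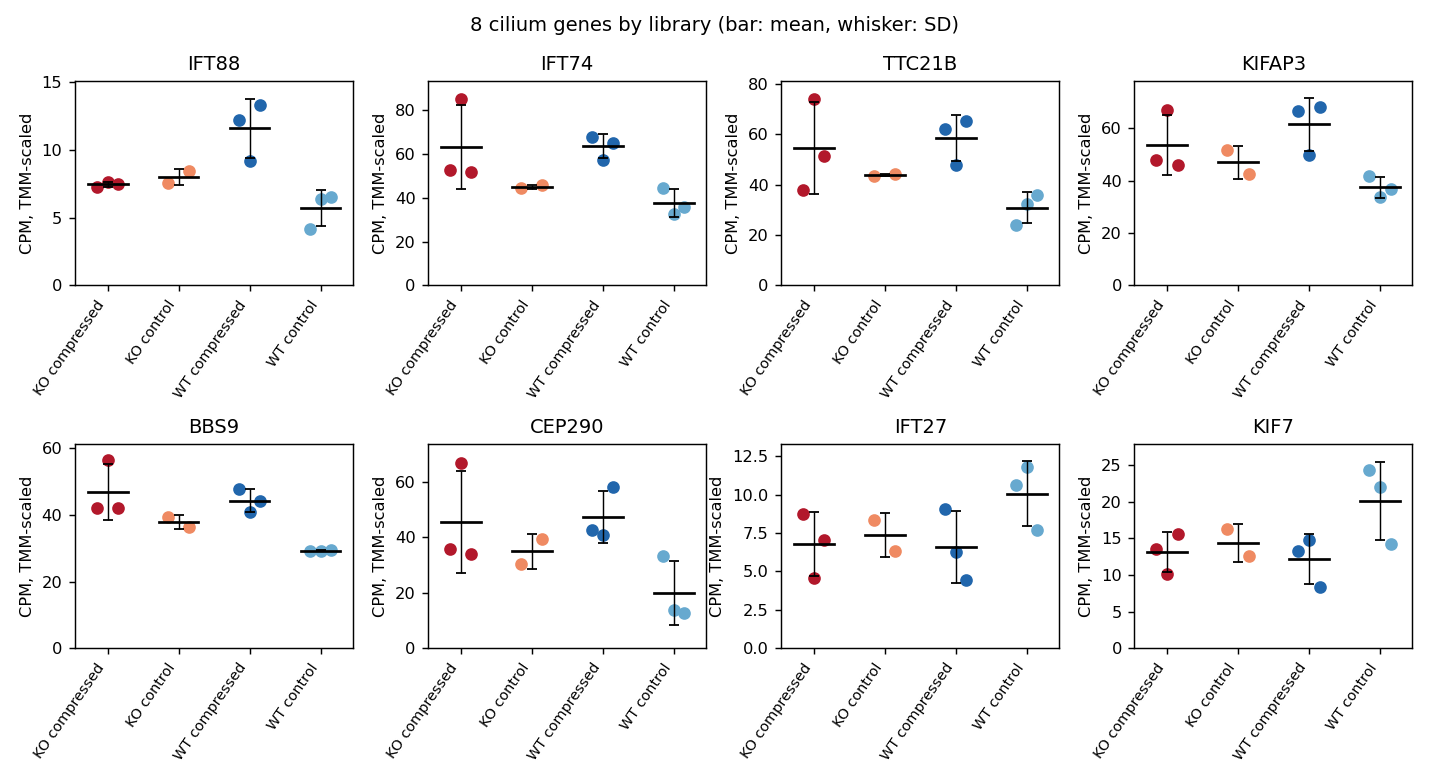
CPM (TMM-scaled, linear axes from 0) of 8 cilium genes in each library, with the group mean as a bar and the SD as a whisker. In IFT88 the WT compressed libraries (9.15 to 13.3 CPM) lie above all others, while in IFT74 and TTC21B KO compressed replicate 2 (85.3 and 73.9 CPM) is the highest library. IFT27 and KIF7 have their highest libraries among WT controls.

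No BBSome gene was called. BBS9, a scaffold subunit, had 47.7, 40.8 and 44.3 CPM in WT compressed and 29.1, 29.2 and 29.4 CPM in WT control libraries, with no overlap (0.60 ± 0.17, edgeR adjusted p of 0.0513). BBS7 had 19.6, 17.3 and 23.8 CPM in WT compressed and 10.8, 13.6 and 12.9 CPM in WT control libraries, also without overlap (0.70 ± 0.21, edgeR adjusted p of 0.0593). BBS2, which forms the core of the complex with BBS7 and BBS9, lay the other way, at 37.4, 40.7 and 32.9 CPM in WT compressed and 60.6, 35.8 and 41.7 CPM in WT control libraries (-0.31 ± 0.20, edgeR adjusted p of 0.284). BBS1, the subunit that binds ARL6 and cargo, had 2.38, 3.98 and 4.34 CPM in WT compressed and 5.04, 4.90 and 3.91 CPM in WT control libraries (-0.38 ± 0.33, edgeR adjusted p of 0.448). Both of these overlapped, and BBS2 ranged from -0.47 to -0.07 with each library left out in turn. Over the 6 BBSome genes, 4 fold changes were above 0 and 2 below, with a median of 0.15. Of all genes 48.5% were above 0, with a median of -0.02.

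The chaperonin-like proteins BBS10 and BBS12 help assemble the BBSome. BBS10 had 16.1, 9.06 and 11.9 CPM in WT compressed and 5.99, 7.78 and 6.53 CPM in WT control libraries (0.87 ± 0.27, edgeR adjusted p of 0.0639). BBS12 had 3.77, 2.46 and 3.33 CPM in WT compressed and 1.97, 1.61 and 1.53 CPM in WT control libraries (0.91 ± 0.46, edgeR adjusted p of 0.187), on 24 to 25 reads per control library. Neither pair of groups overlapped. ARL3 had 42.3, 31.6 and 37.1 CPM in WT compressed and 22.8, 27.0 and 29.8 CPM in WT control libraries, with no overlap (0.48 ± 0.19, edgeR adjusted p of 0.102).

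In the transition zone, CEP290, a large linker between the axoneme and the ciliary membrane, had the largest log2 fold change of all 37 genes, 1.24 ± 0.36, with an edgeR adjusted p of 0.0527. Its libraries read 42.7, 40.9 and 57.9 CPM in WT compressed and 33.3, 13.9 and 12.8 CPM in WT control cells. WT control replicate 1 thus lay well above the other controls but still below every compressed library, and without it the log2 fold change of CEP290 was 1.82 (edgeR adjusted p of 0.0182). A stretch of 431 bp overlaps TMTC3 on the other strand, whose own log2 fold change was 0.68 ± 0.32. The scaffold RPGRIP1L, the membrane protein TMEM67 and MKS1 had log2 fold changes of 0.39, 0.63 and 0.38, and TMEM67 alone of these had an unadjusted p under 0.05. The uncertain TMEM216 row had 18.8, 20.1 and 21.8 CPM in WT compressed and 11.4, 18.3 and 18.3 CPM in WT control libraries (0.33 ± 0.22, edgeR adjusted p of 0.308).

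At the centriole, OFD1, a length regulator of the distal centriole, had 26.0, 26.0 and 38.4 CPM in WT compressed and 24.7, 16.6 and 19.3 CPM in WT control libraries (0.58 ± 0.26, edgeR adjusted p of 0.146). The 285 bp that OFD1 shares with TRAPPC2 on the other strand belong to a gene that was itself called higher (0.75 ± 0.16, edgeR adjusted p of 0.041). CEP164, a distal appendage protein that docks the centriole to the membrane, had 56.7, 55.4 and 55.4 CPM in WT compressed and 54.1, 67.9 and 65.8 CPM in WT control libraries (-0.17 ± 0.15, edgeR adjusted p of 0.459). INVS, the inversin of the proximal cilium, had a log2 fold change of 0.38 ± 0.23.

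**Figure D3:**
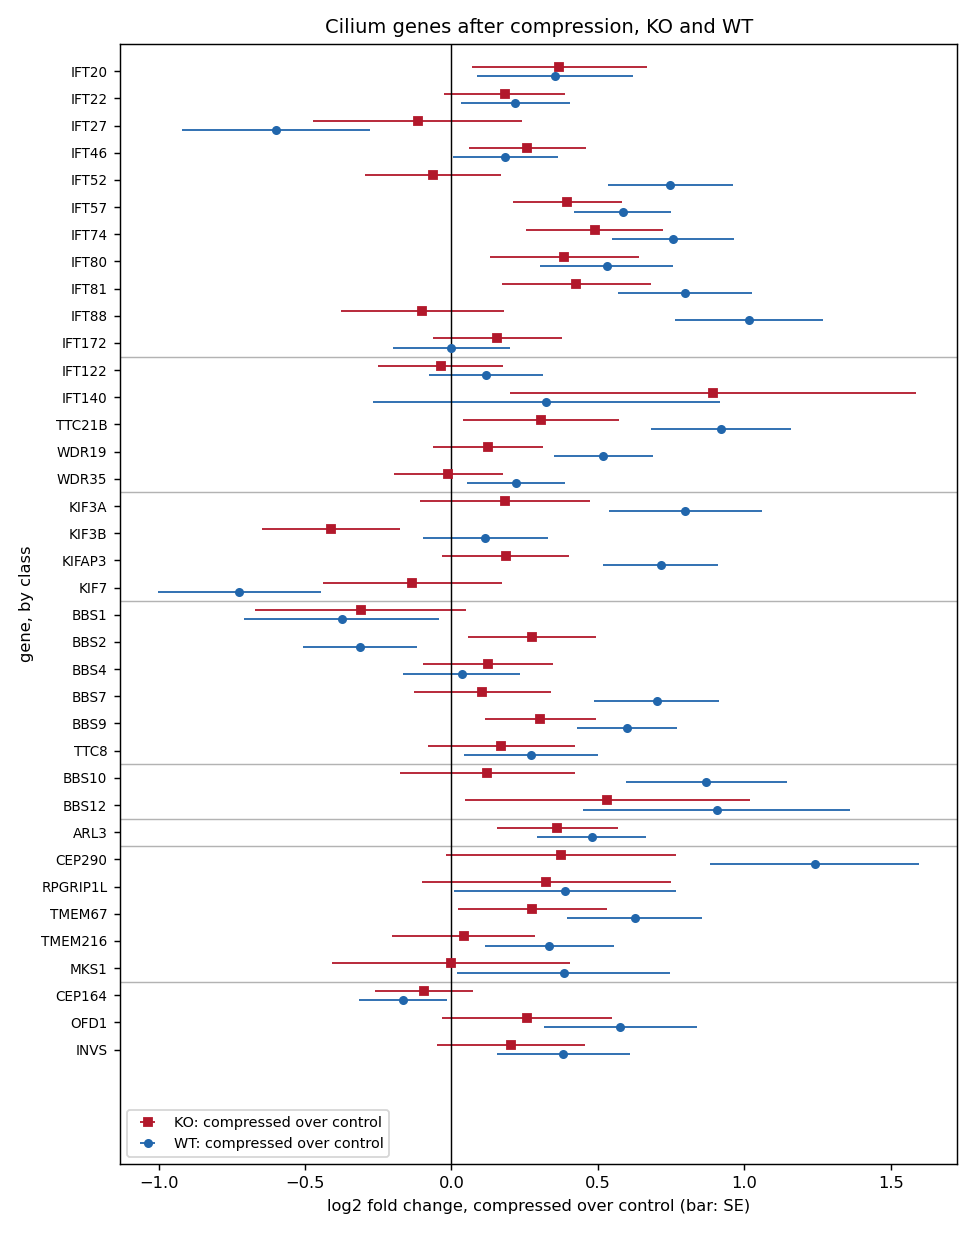
Log2 fold change of each cilium gene, compressed over control, in KO (squares) and WT (circles) cells, with bars giving the SE from the edgeR fit. In KO cells 27 of 37 points lie above 0 (median 0.18), and in WT cells 31 of 37 (median 0.39). The IFT140 and TMEM216 points rest on uncertain rows.

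In LMNA KO cells the same comparison called 0 cilium genes, and 0% of all genes. Without adjustment 0 of the 37 had p under 0.05, against 828 genes or 6.11% of all. The fold change was above 0 for 27 of 37 (49.4% of all genes), and the median log2 fold change was 0.18, against -0.00 over all genes. In 7 genes all KO compressed libraries lay above both KO controls and in 0 the reverse, where 13.5% and 14% of all genes did so. Without KO compressed replicate 2 the median was 0.0311. Fold changes were above 0 in both genotypes for 25 of the 37, against 35.4% of all genes.

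The smallest p values in the upward direction belonged to IFT-B genes and to ARL3. IFT57 had 88.3, 107.2 and 71.2 CPM in KO compressed and 62.8 and 72.3 CPM in KO control libraries, which overlapped (0.40 ± 0.19, edgeR adjusted p of 0.773). IFT74 had 52.5, 85.3 and 51.7 CPM in KO compressed and 44.3 and 45.7 CPM in KO control libraries (0.49 ± 0.23, edgeR adjusted p of 0.773). ARL3 had 47.3, 48.6 and 43.9 CPM in KO compressed and 31.1 and 41.5 CPM in KO control libraries (0.36 ± 0.21, edgeR adjusted p of 0.773). In IFT74 and ARL3 the groups did not overlap, and in IFT57 and IFT74 the value of replicate 2 was the highest of the KO libraries. Without that library the log2 fold changes of IFT57, IFT74 and ARL3 were 0.24, 0.21 and 0.33.

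IFT81 had 17.7, 26.9 and 17.4 CPM in KO compressed and 14.8 and 16.0 CPM in KO control libraries (0.43 ± 0.26, edgeR adjusted p of 0.773). BBS9 had 42.0, 56.6 and 42.1 CPM in KO compressed and 39.4 and 36.5 CPM in KO control libraries (0.30 ± 0.19, edgeR adjusted p of 0.773). In both the groups did not overlap, with replicate 2 highest, and without it IFT81 and BBS9 had log2 fold changes of 0.19 and 0.15. The other genes without overlap were IFT80, BBS2 and the uncertain IFT140 row.

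Of the genes called in WT cells, IFT74 is given above and was higher here too, without a call. IFT88, TTC21B and KIFAP3 follow. The interactions of IFT74, TTC21B and KIFAP3 were -0.27 ± 0.31, -0.62 ± 0.35 and -0.53 ± 0.29 (edgeR adjusted p of 0.939 for each). IFT88 had 7.24, 7.63 and 7.49 CPM in KO compressed and 7.55 and 8.42 CPM in KO control libraries (-0.10 ± 0.28, edgeR adjusted p of 0.938). TTC21B had 37.9, 73.9 and 51.1 CPM in KO compressed and 43.6 and 44.2 CPM in KO control libraries (0.31 ± 0.27, edgeR adjusted p of 0.808), its compressed libraries spanning the controls, and 0.0209 without KO compressed replicate 2. KIFAP3 had 47.8, 66.8 and 46.1 CPM in KO compressed and 51.6 and 42.6 CPM in KO control libraries (0.18 ± 0.22, edgeR adjusted p of 0.844). Both overlapped their controls.

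The smallest p values in the downward direction belonged to KIF3B, BBS1, CEP164 and KIF7, and none was below 0.1. KIF3B had 15.6, 29.1 and 22.1 CPM in KO compressed and 30.2 and 29.0 CPM in KO control libraries (-0.41 ± 0.24, edgeR adjusted p of 0.773). BBS1 had 3.21, 5.61 and 3.47 CPM in KO compressed and 4.96 and 5.16 CPM in KO control libraries (-0.31 ± 0.36, edgeR adjusted p of 0.841). CEP164 had 47.9, 51.5 and 45.9 CPM in KO compressed and 54.7 and 48.6 CPM in KO control libraries (-0.09 ± 0.17, edgeR adjusted p of 0.902). All 3 overlapped between groups, and KIF7, at 13.6, 10.2 and 15.5 CPM in KO compressed and 16.3 and 12.5 CPM in KO control libraries, did so too.

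**Figure D4:**
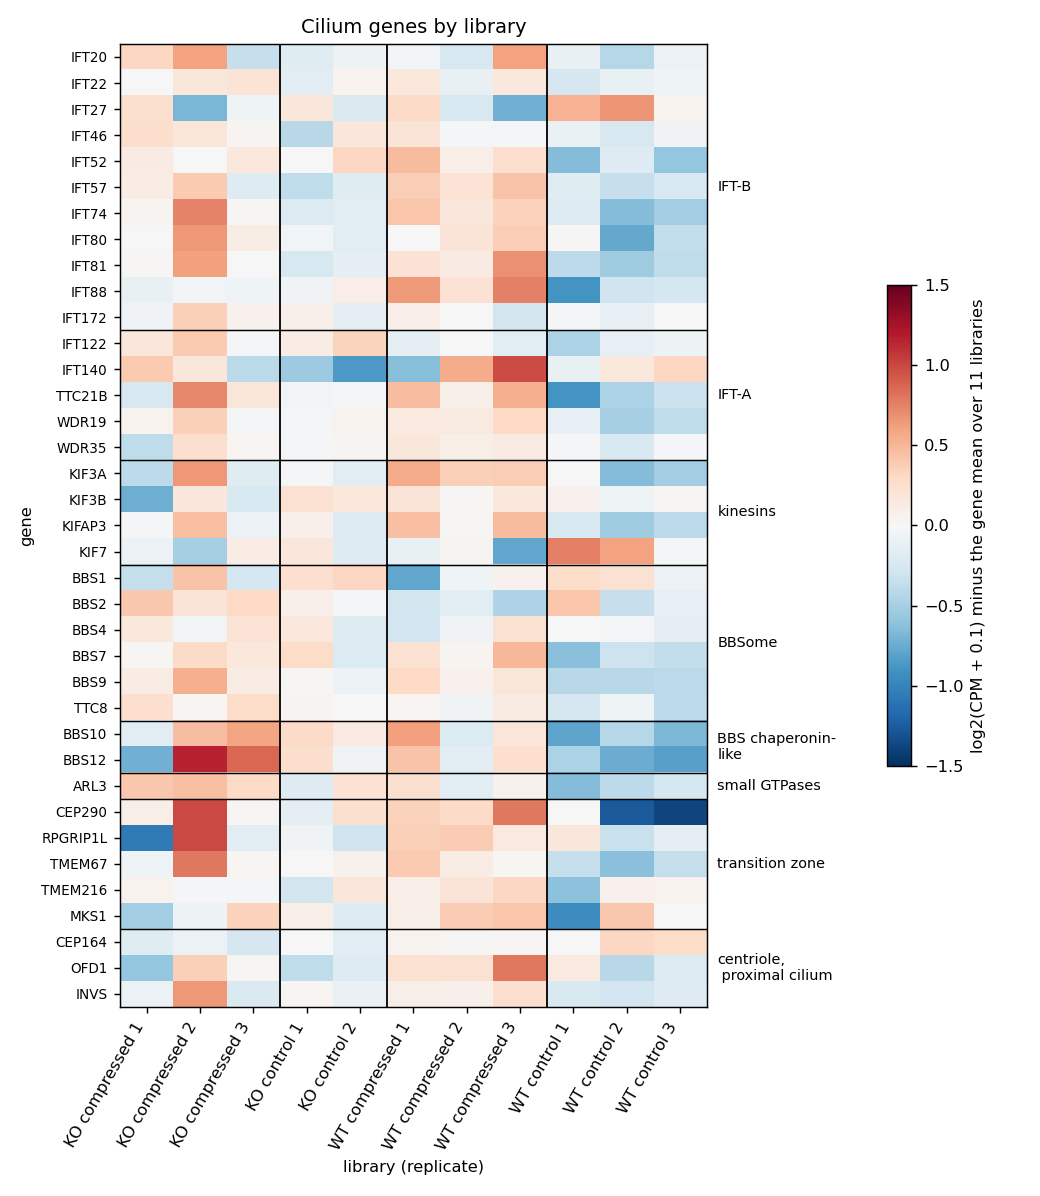
Log2(CPM + 0.1) of each cilium gene in each library relative to its mean over the 11 libraries, ordered by class (rows) and group (columns). WT control libraries are mostly below the gene means and WT compressed libraries above, while KO compressed replicate 2 stands out from the other KO compressed libraries.

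Whether compression differed between the genotypes was tested with the interaction term, the KO log2 fold change minus the WT one. No cilium gene was called and 0% of all genes were. Without adjustment, 2 of 37 were lower and 0 higher at p under 0.05, against 2.26% and 2.53% of all genes. IFT88 had an interaction of -1.12 ± 0.37 (unadjusted p 0.0101, edgeR adjusted p of 0.939) and IFT52 one of -0.81 ± 0.31 (unadjusted p 0.0217, edgeR adjusted p of 0.939). IFT52 read 15.2, 14.0 and 15.6 CPM in KO compressed and 13.9 and 17.3 CPM in KO control libraries. BBS7 (17.02, 20.5 and 18.7 CPM in KO compressed, 20.3 and 14.5 CPM in KO control libraries) and BBS10 (9.26, 14.5 and 15.8 CPM in KO compressed, 12.8 and 11.5 CPM in KO control libraries) followed, with interactions of -0.59 ± 0.32 and -0.75 ± 0.40 (edgeR adjusted p of 0.939 for both). In the other direction, BBS2 had 60.03, 51.9 and 55.7 CPM in KO compressed and 47.8 and 44.7 CPM in KO control libraries, and an interaction of 0.59 ± 0.29 (edgeR adjusted p of 0.939). KIF7 had one of 0.59 ± 0.42, and IFT27, at 8.74, 4.56 and 7.05 CPM in KO compressed and 8.37 and 6.36 CPM in KO control libraries, one of 0.48 ± 0.48. Over the 37 genes the term was above 0 in 10, against 51.3% of all genes, and its median was -0.23, against 0.01. The call of 4 genes in WT cells and 0 in KO cells is therefore no test that the genotypes differ.

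Control cells of the 2 genotypes were compared next. No cilium gene was called, where 0.339% of all genes were, and 3 were higher and 0 lower at an unadjusted p under 0.05, where 4.59% and 3.2% of all genes were. BBS10 had 12.8 and 11.5 CPM in KO control and 5.99, 7.78 and 6.53 CPM in WT control libraries (0.84 ± 0.30, edgeR adjusted p of 0.491). IFT52 had 13.9 and 17.3 CPM in KO control and 8.82, 12.2 and 9.28 CPM in WT control libraries (0.63 ± 0.23, edgeR adjusted p of 0.525). ARL3 had 31.1 and 41.5 CPM in KO control and 22.8, 27.0 and 29.8 CPM in WT control libraries (0.45 ± 0.20, edgeR adjusted p of 0.632). In these 3 both KO controls lay above all WT controls.

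CEP290 followed with 30.5 and 39.4 CPM in KO control and 33.3, 13.9 and 12.8 CPM in WT control libraries (0.81 ± 0.39, edgeR adjusted p of 0.661), its groups overlapping through WT control replicate 1. Without that library the log2 difference in CEP290 was 1.39 (edgeR adjusted p of 0.114). IFT122 had 23.5 and 27.4 CPM in KO control and 15.6, 19.9 and 20.6 CPM in WT control libraries, without overlap (0.44 ± 0.21, edgeR adjusted p of 0.662). In the other direction, CEP164 had 54.7 and 48.6 CPM in KO control and 54.1, 67.9 and 65.8 CPM in WT control libraries (-0.28 ± 0.17, edgeR adjusted p of 0.758). KIF7 had 16.3 and 12.5 CPM in KO control and 24.3, 22.0 and 14.2 CPM in WT control libraries (-0.48 ± 0.31, edgeR adjusted p of 0.77). IFT27 had 8.37 and 6.36 CPM in KO control and 10.6, 11.8 and 7.69 CPM in WT control libraries (-0.45 ± 0.36, edgeR adjusted p of 0.833). The uncertain IFT140 row had 0.496 and 0.380 CPM in KO control and 0.709, 0.872 and 0.977 CPM in WT control libraries, and was the only one of the 37 with both KO controls below all WT controls.

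Across the 37 genes, 30 had a KO control over WT control fold change above 0 (48.3% of all genes), with a median of 0.20 against -0.01. Both KO controls lay above all WT controls in 16 and below in 1, where 16.9% and 15% of all genes did so. The WT control libraries are the reference both here and in the WT compression comparison, so the values of these comparisons are not independent. For BBS10, WT compression gave 0.87 and KO control over WT control 0.84. For CEP290 they gave 1.24 and 0.81, and for IFT88 1.02 and 0.48 ± 0.28. Leaving out WT control 1 and KO compressed 2 together gave 1 call among the 37, CEP290, against 2.9% of all genes.

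Among compressed cells, KO over WT called 0 cilium genes (0.789% of all genes), and at an unadjusted p under 0.05 there were 1 higher and 1 lower (6.79% and 4.49% of all genes). BBS2 had 60.03, 51.9 and 55.7 CPM in KO compressed and 37.4, 40.7 and 32.9 CPM in WT compressed libraries, with no overlap (0.59 ± 0.20, edgeR adjusted p of 0.229). IFT88 had 7.24, 7.63 and 7.49 CPM in KO compressed and 12.2, 9.15 and 13.3 CPM in WT compressed libraries, also with no overlap (-0.63 ± 0.25, edgeR adjusted p of 0.338). These genes lay on opposite sides.

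The other small p values were those of ARL3 (0.33 ± 0.19, edgeR adjusted p of 0.552), OFD1 and KIF3B. OFD1 had 14.8, 28.4 and 22.4 CPM in KO compressed and 26.0, 26.0 and 38.4 CPM in WT compressed libraries (-0.46 ± 0.26, edgeR adjusted p of 0.555). KIF3B had a log2 difference of -0.35 ± 0.21 (edgeR adjusted p of 0.592), and CEP164 one of -0.21 ± 0.15 (edgeR adjusted p of 0.674). IFT122 had 24.5, 28.5 and 21.4 CPM in KO compressed and 19.7, 21.9 and 19.4 CPM in WT compressed libraries (0.29 ± 0.19, edgeR adjusted p of 0.637). BBS12 had 1.64, 6.32 and 5.14 CPM in KO compressed and 3.77, 2.46 and 3.33 CPM in WT compressed libraries (0.45 ± 0.44, edgeR adjusted p of 0.771), the KO libraries spanning the WT ones. Fold changes were above 0 in 18 of 37 genes (49% of all genes), with a median of -0.01. All KO compressed libraries lay above all WT compressed ones in 2 genes and below them in 3, where 7.92% and 7.82% of all genes did so. The median was -0.18 without KO compressed replicate 2.

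The heat map by library can be summed up in the mean z score of the 37 genes, which was -0.14, 0.95 and 0.12 in KO compressed, -0.09 and -0.10 in KO control, 0.43, 0.16 and 0.60 in WT compressed and -0.62, -0.69 and -0.63 in WT control libraries. In 23 of the 37 the lowest library was a WT control (33% of all genes), and in 32 the highest was a compressed library (55.7% of all genes). KO compressed replicate 2 alone was highest in 17 of the 37 (18.5% of all genes).

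The likeness of each gene to the rest was described by Pearson's r between its log2 CPM and the mean z score of the other members, over 11 libraries that share depth, scaling and group effects. BBS9 was the most alike (r of 0.95), followed by IFT81 (0.95) and IFT74 (0.94). KIF7 (-0.81), IFT27 (-0.80) and CEP164 (-0.48) were the least alike. The r was above 0.5 for 23 of 37 members, and for 27.6% of all other genes tested against the mean of the members. The median was 0.66, against -0.02 for those genes.

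Fold changes in WT compression ran with local gene density. By quintile of the number of coding genes within 0.5 Mb, from sparse to dense, the median log2 fold change of all genes was 0.24, 0.22, 0.08, -0.19 and -0.46. The cilium genes had medians of 0.49, 0.72, 0.52, 0.28 and 0.09 in the same quintiles, which held 8, 8, 7, 10 and 4 of them. Of the 37, 32 lay above the median of their own quintile, by 0.44 at the median. In KO compression 29 of the 37 did so, by 0.17 at the median. Their median number of neighbours was 13, against 14 for all genes, while their median genomic span was 54289 bp, against 17668 bp. After a correction of each library for gene density 0 of the 37 cilium genes were called, against 4 without it. Of all genes 3.33% were called after it, against 3.85% higher and 2.4% lower without it. The corrected log2 fold changes of IFT88, TTC21B, KIFAP3 and IFT74 were 0.83, 0.66, 0.62 and 0.59 (edgeR adjusted p of 0.0678, 0.0785, 0.0587 and 0.0622). The median of the 37 was 0.41, against 0.39 without the correction. The mean z score of the densest quintile was 0.18, -0.999 and 0.22 in KO compressed, 0.18 and 0.35 in KO control, -0.38, -0.13 and -0.79 in WT compressed and 0.08, 0.86 and 0.42 in WT control libraries. The library with the lowest value, KO compressed replicate 2, also had the highest cilium score, and the part of gene density in the cilium values was not tested.

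**Figure D5:**
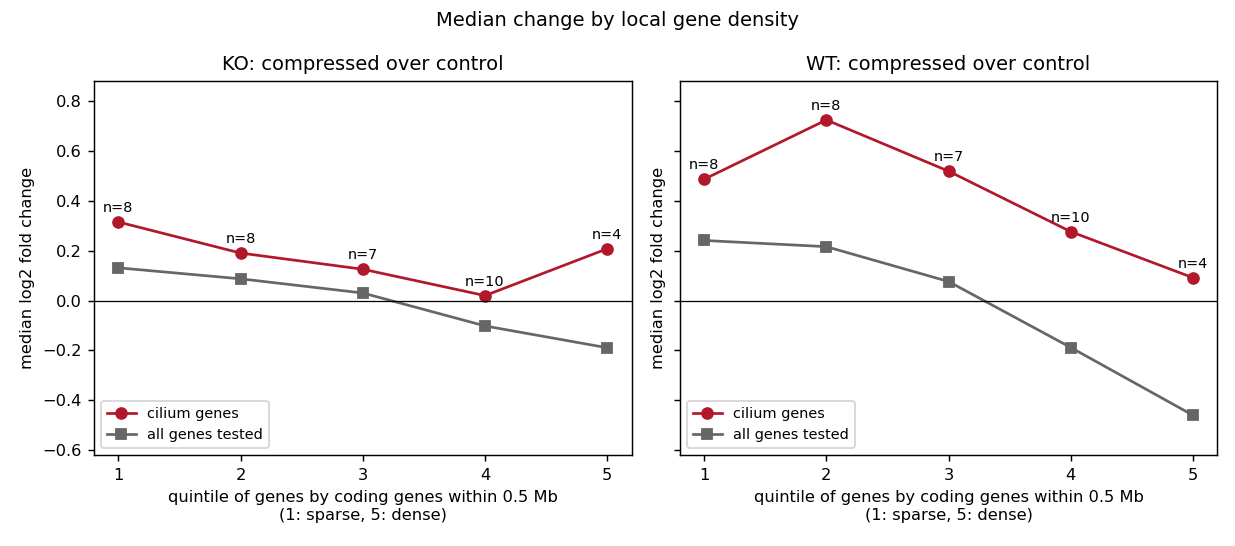
Median log2 fold change, compressed over control, of cilium genes (circles, with their number) and of all genes tested (squares) by quintile of local gene density, in KO (left) and WT (right) cells. In WT cells the median of all genes runs from 0.24 in the sparsest to -0.46 in the densest quintile, and the cilium genes lie above it in every quintile in both genotypes.

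Other genes of the primary cilium, together with a list of RFX factors, FOXJ1, GMNC and MCIDAS, were counted from lists outside the 39. Of 85 such genes found, 80 were tested, and 4 were called higher and 0 lower after compression in WT cells, against 3.85% and 2.4% of all genes, with a median log2 fold change of 0.18. A count of 4 in 80 lies near that share. BBIP1, a small BBSome subunit, had 62.8, 53.1 and 69.2 CPM in WT compressed and 28.8, 33.2 and 33.1 CPM in WT control libraries (0.96 ± 0.22, edgeR adjusted p of 0.0415). IQCB1, a transition zone protein, had 31.8, 31.8 and 42.9 CPM in WT compressed and 21.1, 21.1 and 19.9 CPM in WT control libraries (0.78 ± 0.19, edgeR adjusted p of 0.0428). SCLT1, a distal appendage protein, had 36.0, 28.5 and 34.7 CPM in WT compressed and 20.1, 13.8 and 19.8 CPM in WT control libraries (0.88 ± 0.21, edgeR adjusted p of 0.0418). In BBIP1, IQCB1 and SCLT1 the groups did not overlap. In KO compression, in both KO over WT comparisons and in the interaction, 0 of the 80 were called.

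The counts by list are small and stand against the same 3.85% of all genes called higher. The dynein-2 and remaining IFT genes had 0 of 13 called in WT compression and a median of 0.40, the ciliary membrane and signalling genes 0 of 20 and 0.08, and the disassembly genes 0 of 8 and 0.15. The remaining transition zone genes had 2 of 16 called and a median of 0.22, the remaining BBS genes 1 of 3 and 0.53, and the centriole appendage and capping genes 1 of 14 and 0.13. The list of RFX factors, FOXJ1, GMNC and MCIDAS, some of which regulate ciliary genes, had 0 of 6 called and a median of -0.24. FOXJ1, the driver of motile cilia, stayed at or under 0.252 FPKM, and 13 of 15 motile cilium genes were under 1 FPKM in every library.

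Cilia are resorbed as cells enter division, so markers of cycling cells were read as well. Of 16 such genes 0 were called in WT compression, and at an unadjusted p under 0.05 there were 4 higher and 1 lower, where 15.4% and 16.4% of all genes were. Their fold change was above 0 for 13 of the 16 (48.5% of all genes), and their median log2 fold change was 0.27. In 9 of the 16 all WT compressed libraries lay above all WT controls and in 1 the reverse, against 21.2% and 20.8% of all genes. Their mean z score was -0.39, 0.58 and -0.73 in KO compressed, -0.08 and -0.43 in KO control, 0.53, 0.52 and 0.91 in WT compressed and -0.35, -0.31 and -0.24 in WT control libraries. Their part in the cilium values was not tested. Among epithelial markers in WT compression, EPCAM, a surface adhesion protein, was called higher (0.60 ± 0.15, edgeR adjusted p of 0.0448), and the renal transcription factors PAX8 (-1.11 ± 0.24, edgeR adjusted p of 0.041) and PAX2 (-0.98 ± 0.23, edgeR adjusted p of 0.0415) were called lower. The number and length of cilia are not measured by these data.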

How the data were processed

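RNA of MDCKII cells was captured with oligo(dT) and copied from random hexamers, per the labels' protocols. Per the submitters' processing notes, reads went through CASAVA, FastQC and HISAT2 2.0.5 with the build CanFam3.1. The gene counter, annotation release and strand setting: not given in the sources used here. For 26178 genes the authors deposited raw read counts as whole numbers, FPKM values, and another column with gene length in bp. Symbols were read from the table's gene names, or from its UniProt match for 5 of the members.

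The test was edgeR 4.0.16 in R 4.3.3: filterByExpr left 13560 genes, TMM scaled the libraries, and 1 quasi-likelihood fit of 4 groups over 11 libraries left 7 residual degrees of freedom. All p are two-sided, adjusted by Benjamini-Hochberg over all genes tested, with a threshold of 0.05. The SE is the log2 fold change over the root of its F statistic. CPM are TMM-scaled counts per 1e6, and FPKM is used only for levels per length. With 10420214 to 17999623 counts per library, genes with few reads, such as IFT140, are imprecise.

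The members and lists were chosen with earlier results of these data known. Values by library are given for called members, for the 4 smallest p in each direction per comparison, for the highest-FPKM and smallest-p member of each class, and for the 3 members most and least alike the others. The tests were also run on simulated counts, drawn gene by gene without shifts shared between genes. That run therefore does not cover shifts such as those with gene density. Replicates of a group differed by at least 6.09 chi-square per gene, so none was counted as a duplicate. Alternatives tried were no filter, 1 CPM in 3 libraries, RLE scaling, scaling by library size, DESeq2 1.42.0, a robust fit, limma 3.58.1 on log2(FPKM + 1) and log2(FPKM + 0.1), only the groups compared, a replicate block, and leaving out each library. Corrections for gene density and genomic span, leaving out WT control 1 and KO compressed 2 together, and dropping the uncertain IFT140 and TMEM216 rows were added after seeing the data. Promoter and protein sequences were not analysed here. The values of 1 called gene outside the 39 are not reported here.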

Additional observations from a re-analysis of the deposited data

How the results depend on the processing

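The number of cilium genes called in WT compression moved most. It was 4 in the fit reported, with RLE scaling and with a robust fit (6.25% of all genes in each), 4 without the IFT140 and TMEM216 rows and 5 after a correction for genomic span (9.27%). It was 13 with DESeq2 (19.1% of all genes), 12 with only the groups compared (16.3%), 8 with no filter (9.62%), 7 at 1 CPM in 3 libraries (7.2%), 1 with library size alone (4.52%), 0 with limma on log2(FPKM + 1) or log2(FPKM + 0.1) (0% and 0.00755%), and 0 after the density correction (3.33%). It ranged from 0 to 14 when each library was left out in turn and was 15 without WT control 1 and KO compressed 2 together (34% of all genes). The 4 called genes kept a positive fold change under all 24 alternatives, IFT88 from 0.72 to 1.16, and each kept its call under 11 or 12 of them. BBS1 in WT compression turned to 0.0299 after the density correction.

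With each library left out in turn, the median ranged from 0.37 to 0.52 in WT compression, 0.0311 to 0.24 in KO compression, -0.18 to 0.0805 for KO over WT among compressed cells and -0.38 to -0.13 for the interaction, the lowest of the last 3 being without KO compressed 2. With WT control 1 also left out the last 3 were 0.0314, -0.18 and -0.45, and calls were 1 in KO control over WT control, 2 in KO over WT compressed and 2 in the interaction, against 2.9%, 8.22% and 2.75% of all genes. KIF7 in KO compression ranged from -0.31 to 0.0623 over single libraries left out, being above 0 without KO compressed 2 (0.0165) or KO control 1, and was 0.0169 without WT control 1 and KO compressed 2. The causes were not tested.

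Over 15 pairs of same-numbered replicates, r of their deviations from group means ran from -0.35 to 0.20, with 1 above 0.1. Over 30 pairs with different numbers it ran from -0.25 to 0.37, with 9 above 0.1. With means of only 2 or 3 libraries this check is weak and cannot exclude pairing. The labels do not say that the numbers pair samples, so they are not taken to do so. With the replicate block, 0 members and 0 genes were called in WT compression, with 16 members and 3439 genes at unadjusted p under 0.05, and KIF7 in KO compression was 0.0041.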
